A study of Mus musculus with 4 samples.

Results

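The collagen genes are the genes named Col, a type number, a and a chain number, and 42 of them were represented on the arrays by 61 probes, among 32585 genes or identifiers and 39429 probes in all. They were found by matching the RefSeq accession of each noncontrol probe to a gene symbol, with no use of the signals. The RefSeq table lists 44 such genes, and Col6a3 and Col12a1 had no probe matched here. The members were divided into 11 fibrillar genes, 6 basement membrane genes, which are the chains of type IV, and 25 other genes. RNA came from the duodenum and the spinal cord of male IP6K2-KO mice and their WT littermates at 20 weeks of age. The KO allele lacks the exon that encodes the kinase domain of IP6K2, an enzyme that makes inositol pyrophosphates. Both genotypes were raised on CE-2 diet, spent 1 week on iVid-neo, a purified diet, and then fasted for 48 h before the tissues were taken. Each genotype and tissue was measured on 1 Agilent array with 1 colour, 4 arrays in all, so the number of arrays limits every value and no difference could be tested.

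Collagens are secreted or membrane-bound proteins whose chains wind into a triple helix. Fibrillar collagens build the tension-bearing fibrils of connective tissue, type IV collagen forms the network of basement membranes, and the others make microfibrils, anchoring fibrils, fibril coats or cell-surface proteins. In the gut wall collagen lies in the lamina propria, the submucosa and the muscle layers, whereas the parenchyma of the spinal cord holds little fibrillar collagen outside its vessels and its meninges.

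Levels are log2 of the processed signal, an intensity after background subtraction, minus the 75th percentile of the array, so that a level of 0 equals that percentile. This percentile was 905 for WT spinal cord, 971 for the spinal cord array labelled KO, 68.0 for WT duodenum and 323 for the duodenum array labelled KO, and the shares of probes well above background were 76.7%, 77.3%, 51.6% and 66.3% in this order. The Ip6k2 probe gave signals of 452, 1320, 139 and 572 in that order, which are levels of −1.0, 0.44, 1.04 and 0.83, and it was well above background on every array. It was thus brighter on the KO-labelled than on the WT array of the spinal cord, the files do not place it relative to the deleted exon, and genotypes are given here as labelled. Both tissues carried their defining markers: all 10 enterocyte genes were at least 2-fold higher on the duodenum array of each genotype, and 9 of 10 neuron genes in WT and 10 of 10 in the KO-labelled pair were at least 2-fold lower there.

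Promoter sequences are shown for 4 collagen genes whose values are described below. The type IV pair was chosen because its genes start head to head. Col1a2 and Col3a1 were chosen as type I and type III chains that were higher on the KO-labelled spinal cord array, by 0.63 and 2.05. No promoter sequence was available for Col1a1. The windows hold 250 bases before and 50 bases after the start of the gene, are written 5′ to 3′ on the strand of the gene, and come from RefSeq on build GRCm38.p6. In the first pair, Col4a1 on the minus strand (chr8:11312777-11313076) and Col4a2 on the plus strand (chr8:11312555-11312854), capitals mark the 78 bases that the windows share on opposite strands (chr8:11312777-11312854).
Col4a1: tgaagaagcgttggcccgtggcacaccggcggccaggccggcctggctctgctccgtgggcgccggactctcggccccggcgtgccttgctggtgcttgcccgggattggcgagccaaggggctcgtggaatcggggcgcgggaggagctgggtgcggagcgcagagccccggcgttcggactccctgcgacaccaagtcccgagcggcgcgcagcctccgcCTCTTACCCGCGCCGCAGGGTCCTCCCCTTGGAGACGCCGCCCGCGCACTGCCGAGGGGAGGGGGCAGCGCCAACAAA
Col4a2: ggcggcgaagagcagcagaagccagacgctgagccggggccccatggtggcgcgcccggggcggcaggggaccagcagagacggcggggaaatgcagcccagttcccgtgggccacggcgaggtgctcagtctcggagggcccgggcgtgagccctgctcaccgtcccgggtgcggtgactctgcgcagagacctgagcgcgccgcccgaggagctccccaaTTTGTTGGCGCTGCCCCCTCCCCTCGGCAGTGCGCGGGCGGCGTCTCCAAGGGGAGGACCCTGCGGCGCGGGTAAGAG
In the second pair, Col1a2 (chr6:4505368-4505667, plus strand) and Col3a1 (chr1:45311288-45311587, plus strand), capitals mark matches on either strand to CCAAT, to TATAAA or to GGGCGG.
Col1a2: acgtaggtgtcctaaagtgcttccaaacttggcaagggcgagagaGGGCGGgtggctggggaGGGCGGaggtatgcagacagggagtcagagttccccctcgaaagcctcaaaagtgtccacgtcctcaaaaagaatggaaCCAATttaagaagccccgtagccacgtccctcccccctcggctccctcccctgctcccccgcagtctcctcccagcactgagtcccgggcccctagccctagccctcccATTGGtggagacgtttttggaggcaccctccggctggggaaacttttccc
Col3a1: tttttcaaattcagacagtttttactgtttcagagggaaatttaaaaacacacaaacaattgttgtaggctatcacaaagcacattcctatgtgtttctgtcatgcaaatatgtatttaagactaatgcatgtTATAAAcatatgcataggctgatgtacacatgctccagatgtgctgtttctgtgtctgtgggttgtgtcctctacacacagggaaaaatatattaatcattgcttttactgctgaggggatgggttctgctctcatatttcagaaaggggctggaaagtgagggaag
The Col1a2 window held 2 matches to CCAAT and 2 to GGGCGG, and the Col3a1 window held 1 match to TATAAA. Of the 42 members 35 had a window. CCAAT (or ATTGG) was in 34.2% of 38 windows of members against 37.4% of all 32851 windows, TATAAA (or TTTATA) in 13.2% against 13.6%, and GGGCGG (or CCGCCC) in 60.5% against 35.7%. The median GC content was 59.8% for the members' windows and 52.7% for all windows.

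Collagen transcripts were detected more widely in the spinal cord than in the duodenum. Of the 42 genes, 36 were well above background on the spinal cord array of WT and 38 on the KO-labelled array, or 85.7% and 90.5%, against 75.5% and 76.1% of all genes. In the duodenum 20 genes were above background on the WT array and 26 on the KO-labelled array, or 47.6% and 61.9%, against 51.8% and 65.6% of all genes. The duodenum arrays were dimmer, and the lowest level counted as well above background was −7.66 and −7.82 on the spinal cord arrays but −3.99 and −6.22 on the duodenum arrays. By class, 11 of 11 fibrillar genes were detected on each spinal cord array and 6 and 8 on the duodenum arrays, 5 of 6 basement membrane genes on every array but WT duodenum, which had 3, and 20, 22, 11 and 13 of the 25 other genes.

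There were 20 genes detected on all 4 arrays, or 47.6% against 49.7% of all genes, among them both chains of type I, type III, the first and second chains of types IV and VI, and types VII, XIV, XVI and XVIII. Another 11 genes were detected on both spinal cord arrays and neither duodenum array: the cartilage collagen chains Col2a1, Col9a1, Col9a3, Col10a1 and Col11a1, the fibrillar Col24a1, the vessel-associated Col8a1 and Col15a1, and Col19a1, Col25a1 and Col26a1. The spinal cord signals of these 11 on the WT array ran from 5.73 for Col15a1, 6.77 for Col10a1 and 9.94 for Col8a1 through 15.5 for Col19a1, 17.3 for Col9a3 and 48.8 for Col9a1 to 566 for Col26a1. They are 26.2% of the members, whereas 12.1% of all genes showed this pattern. On the WT spinal cord array, Col8a1, Col10a1 and Col15a1 had levels of −6.51, −7.06 and −7.30. These lay below the lowest detected level of both duodenum arrays, −3.99 and −6.22. Those of Col9a1, Col9a3 and Col19a1 lay below that of WT duodenum. An equal level there would not have been counted as detected, so in WT the pattern gives no difference between the tissues for these genes. No member was detected on both duodenum arrays and neither spinal cord array, a pattern shown by 1.43% of all genes. Col4a3, Col6a6, Col17a1 and Col28a1 were not well above background on any array. Col4a4, Col4a5, Col5a2, Col22a1 and Col27a1 were above background on all arrays but WT duodenum, the dimmest, Col6a5 on the KO-labelled arrays alone, and Col13a1 on the KO-labelled spinal cord array alone.

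**Figure D1:**
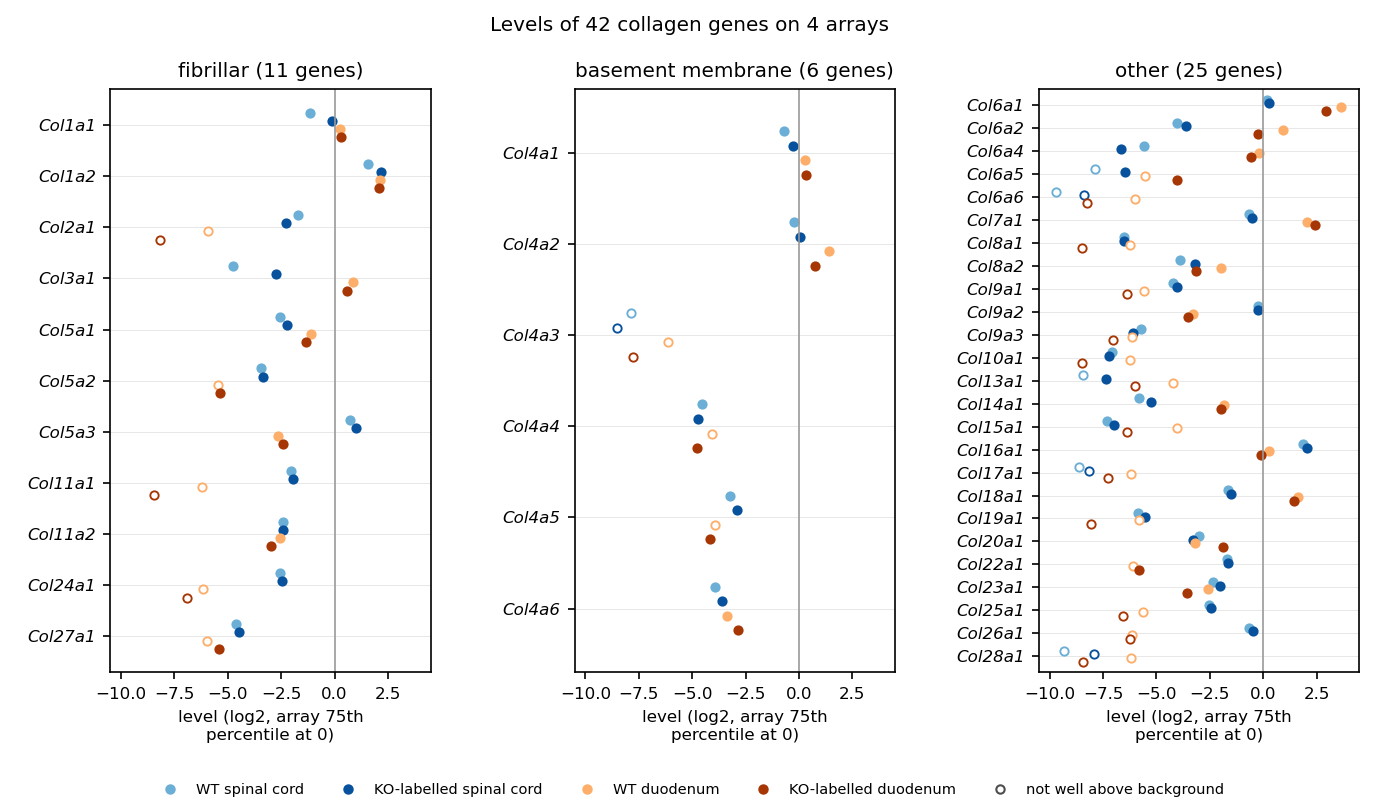
Levels of the 42 collagen genes on the 4 arrays, as log2 signal with the 75th percentile of each array at 0 on the x axis, by class. Filled points were well above background and open points were not, and the open points are mostly those of the duodenum arrays, where 20 and 26 genes were detected against 36 and 38 in the spinal cord.

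In the spinal cord, most collagen genes lay slightly higher on the KO-labelled array, and Col3a1 lay furthest apart. Of the 36 genes above background on both arrays, 28 were higher and 8 lower on the KO-labelled array, with a median difference of 0.16 against −0.04 over all genes, of which 41.3% were higher. At least 2-fold higher were 3 members of 38, or 7.89%, against 2.28% of all genes, and they were Col3a1, Col1a1 and Col6a5. Col6a4 alone was at least 2-fold lower, which is 2.63% of the members against 0.865% of all genes. Among fibrillar genes 10 of 11 differences were positive, with a median of 0.14, and the medians were 0.31 for 5 basement membrane genes and 0.15 for 20 others. Directions depended on background correction, and not for dim genes alone: under all 9 settings 16 of the 36 genes kept their direction relative to the median gene. Among those that did not were Col22a1 and Col11a1, with WT signals of 278 and 221. Under normexp background correction the median over members was −0.90, against −0.45 over all genes.

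Type III collagen, the fibrillar collagen of pliable tissue and vessel walls, had a Col3a1 signal of 33.1 on the WT array of the spinal cord, 147 on the KO-labelled spinal cord array, 123 on the WT duodenum array and 483 on the KO-labelled duodenum array. The spinal cord arrays differed by 2.05 on the log2 scale, or 4.15-fold, with a technical SD of 0.10. The technical SD comes from probes spotted 10 times and covers spots on an array, not mice. Relative to the median gene this difference was between −0.24 and 2.09 over the settings, and the negative value came from normexp background correction with the local backgrounds as deposited. With flagged local backgrounds replaced, normexp gave 1.14 before the median gene was subtracted.

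The type I chains Col1a1 and Col1a2, which assemble together into the main fibrils of most connective tissues, were also higher on the KO-labelled spinal cord array. Col1a1 gave signals of 412, 887, 81.0 and 392 on WT spinal cord, KO-labelled spinal cord, WT duodenum and KO-labelled duodenum, and Col1a2 gave 2655, 4421, 299 and 1362. The spinal cord differences were 1.01 with a technical SD of 0.061 for Col1a1 and 0.63 with a technical SD of 0.057 for Col1a2. Over the settings they stayed positive relative to the median gene, from 0.99 to 1.07 for Col1a1 and from 0.65 to 1.28 for Col1a2. Of the type V chains, which set fibril diameter, Col5a1 differed by 0.33, Col5a2 by 0.09 and Col5a3 by 0.27. Col2a1, the main collagen of cartilage, differed by −0.55, from a signal of 273 on the WT array to 199 on the KO-labelled array, and was the only fibrillar gene with a negative value. The remaining fibrillar genes Col11a1, Col11a2, Col24a1 and Col27a1 lay between 0.01 and 0.14.

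Of the type IV chains in the spinal cord, Col4a1 gave a signal of 562 on the WT array and 803 on the KO-labelled array and Col4a2 gave 775 and 997, differences of 0.41 and 0.26. Of the minor chains, Col4a5 gave 97.5 and 129, Col4a6 60.1 and 81.1 and Col4a4 39.0 and 36.9, differences of 0.31, 0.33 and −0.18. All lay within 2-fold, and only those of Col4a1 and Col4a2 stayed positive relative to the median gene under every setting.

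Among the other collagens, type VI makes beaded microfibrils around cells. Col6a1 gave spinal cord signals of 1012 and 1168 and Col6a2 55.0 and 78.6 on the WT and KO-labelled arrays, differences of 0.11 and 0.41. Col6a4 was dim, with 18.97 on the WT array and 9.60 on the KO-labelled array, a difference of −1.09 with a technical SD of 0.21 that was −0.62 when its probes were averaged. Col6a5 was detected on the KO-labelled array only, at a signal of 11.0 against 3.82, and was at least 2.29-fold higher there. Its other probe was not well above background on any array. Col8a2 differed by 0.69 and Col14a1, which coats fibrils, by 0.56, and the sign of each turned under normexp with the backgrounds as deposited. A dimmer probe of Col8a2 was at −0.27. The rest ranged from −0.40 for Col9a3 to 0.33 for Col23a1 and Col19a1, apart from Col13a1, detected on the KO-labelled array only and at least 1.23-fold higher there.

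**Figure D2:**
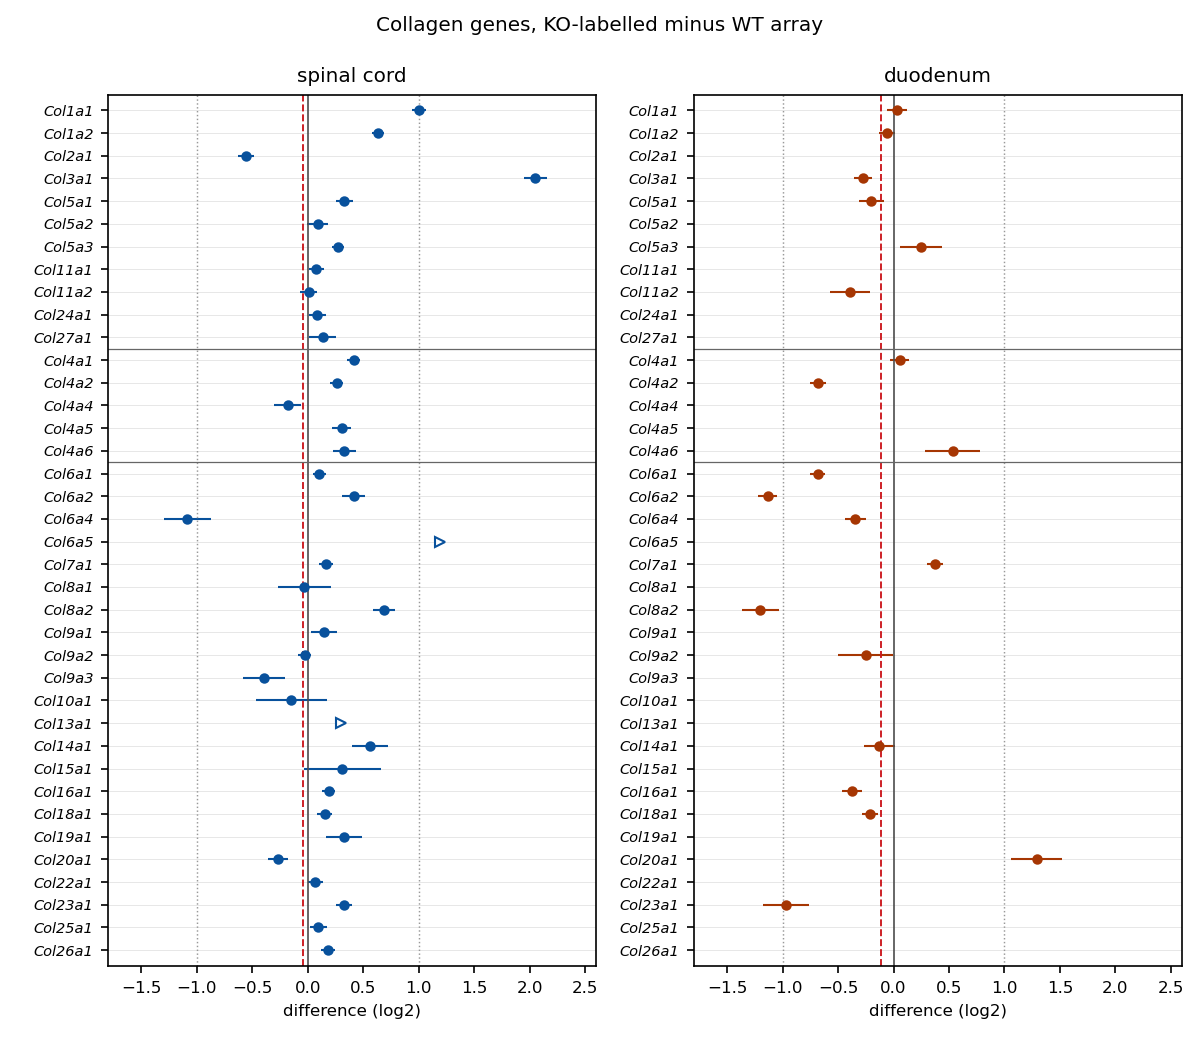
Log2 differences of the KO-labelled array minus the WT array for collagen genes in the spinal cord and the duodenum, in the order fibrillar, basement membrane and other, set apart by lines. Bars are technical SDs of repeated spots, open triangles are bounds, dotted lines mark 2-fold, and the red dashes mark the median of all genes at −0.04 and −0.11. Col3a1 at 2.05 lies furthest to the right in the spinal cord, where plain normexp correction turned its sign, and Col20a1 at 1.29 does so in the duodenum, where both normexp settings turned its sign.

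Genes of other tissues moved with the spinal cord arrays. Of 10 skeletal muscle genes 9 were at least 2-fold higher on the KO-labelled array, with a median of 4.02 and a summed level of 96.5 against 28.5 in units of the 75th percentile, and the fast myosin gene Myh4 had signals of 1246 and 21634. Of 8 Schwann cell genes 5 were higher, with a median of 2.53. The 8 genes summed to 54.6 and 42.8, mostly from Mal, which had a level of 5.35 on both arrays. Of 9 meningeal genes 4 were higher, with a median of 0.78 but sums of 109 and 124, and of 7 red cell genes 5 were higher, with a median of 1.21 and sums of 351 and 228. Fibroblast genes had a median of 0.30, with Mfap5 at 3.71 and Pi16 at 1.28 among the 9 genes. The 9 genes summed to 78.7 and 82.3, mostly from Thy1, at levels of 6.11 on the KO-labelled array and 6.24 on the WT array. In the cartilage and bone list 1 of 11 detected genes, Ibsp at 1.05, was 2-fold higher, and no endothelial, pericyte or neuron gene was 2-fold apart. Of 7 detected smooth muscle genes 2 were higher, Des by 3.44 and Smtn by 1.30, with a median of 0.07 and sums of 6.40 and 3.90. The part of these tissues in the collagen differences was not tested. In bulk tissue more cells of a type and more RNA per cell cannot be told apart.

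In the duodenum, most measured members lay lower on the KO-labelled array. Of 20 genes above background on both arrays 6 were higher and 14 lower, with a median difference of −0.23 against −0.11 over all genes, of which 55.8% were lower. At least 2-fold higher was 1 member of 26, Col20a1, or 3.85% against 7.20% of all genes, and 2 members, Col6a2 and Col8a2, were at least 2-fold lower, or 7.69% against 11.9% of all genes. Both shares were below those of all genes. Scaling on spiked-in probes raised the median gene to 2.89 and every member with it, so directions in the duodenum are relative to the other genes on the array, and 14 of the 20 genes kept theirs under all 9 settings. Medians by class were −0.13 for 6 fibrillar genes, 0.05 for 3 basement membrane genes and −0.34 for 11 others. Another 6 members were detected on the KO-labelled array only, with bounds too weak to give a fold, and 16 on neither.

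The type I and type III chains that lay apart in the spinal cord lay close together in the duodenum. Col1a1 differed by 0.03, Col1a2 by −0.06 and Col3a1 by −0.28, with technical SDs of 0.088, 0.069 and 0.082. Col5a1 differed by −0.20, Col5a3 by 0.24 and Col11a2 by −0.39. None of the 6 measured fibrillar genes was as much as 1.5-fold apart.

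Of the type VI chains, Col6a2 was lower on the KO-labelled duodenum array once scaled. The Col6a2 signals were 128 on the WT array and 276 on the KO-labelled array, against 75th percentiles of 68.0 and 323, a difference of −1.14 with a technical SD of 0.086 and from −1.15 to −0.59 relative to the median gene over the settings. Col6a1, at 848 and 2505, differed by −0.68, but from −0.57 to 0.07 relative to the median gene, so that its direction was not kept. Col6a4, at 58.6 and 219, differed by −0.34. Col6a5 was detected on the KO-labelled array only, at a signal of 19.4 against 1.44, and gave no fold. Col8a2, a short-chain collagen of basement membranes such as that of the cornea, had signals of 17.4 and 35.9, a difference of −1.20 with a technical SD of 0.16. It stayed between −1.58 and −1.09 relative to the median gene.

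The Col20a1 probe, for a fibril-associated collagen, gave 112 and 99.5 on the WT and KO-labelled spinal cord arrays and 7.42 and 86.1 on the WT and KO-labelled duodenum arrays. The duodenum difference was 1.29 with a technical SD of 0.23, its other probe gave 0.83, and under both normexp settings it was −0.48. Col23a1, a transmembrane collagen, differed by −0.97, but another of its probes was 0.96 higher with the WT value below background, so its probes disagreed. Those of Col4a6 disagreed too, at 0.53 for the brighter probe, with signals of 6.60 and 45.3, and −1.30 for the other. In the type IV pair, Col4a1 gave 83.6 and 412 and Col4a2 gave 182 and 540, differences of 0.05 and −0.68.

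Col7a1, the anchoring fibril collagen beneath epithelia, differed by 0.38 in the duodenum, with signals of 281 and 1730, and by 0.16 in the spinal cord, with 566 and 680. It lies on chromosome 9 with 5 protein-coding genes between it and Ip6k2, the nearest of the 5 members on that chromosome. Of the remaining genes, Col16a1 differed by −0.37, Col9a2 by −0.25, Col18a1 by −0.21 and Col14a1 by −0.13. Another probe of Col16a1 was at 0.095. Other probes of Col18a1 and Col14a1, brighter on both duodenum arrays than the probes used, were at −0.069 and −0.43.

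Markers of other cells also lay apart between the duodenum arrays. All 6 detected red cell genes were at least 2-fold lower on the KO-labelled array, with a median of −3.39 and summed levels of 88.4 and 1532 on the KO-labelled and WT arrays. Smooth muscle genes had a median of −0.78, with sums of 74.3 and 131 and with Actg2 at −1.55 and Des at −1.42, and endothelial genes one of −0.30, with sums of 4.93 and 18.0 and with Kdr at −2.42 and Tek at −1.17. Fibroblast genes had a median of −0.17, with sums of 11.3 and 13.3, and Dpt and Fap were at least 2-fold higher by their bounds. Pericyte genes had a median of −0.66. At least 2-fold apart among them were Cspg4, lower at −1.67, and Rgs5 and Kcnj8, both higher, Kcnj8 by its bound. Of 10 enterocyte genes 2, Fabp2 and Apoa1, were lower at −1.81 and −1.56. The part of these cells in the collagen differences was not tested.

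**Figure D3:**
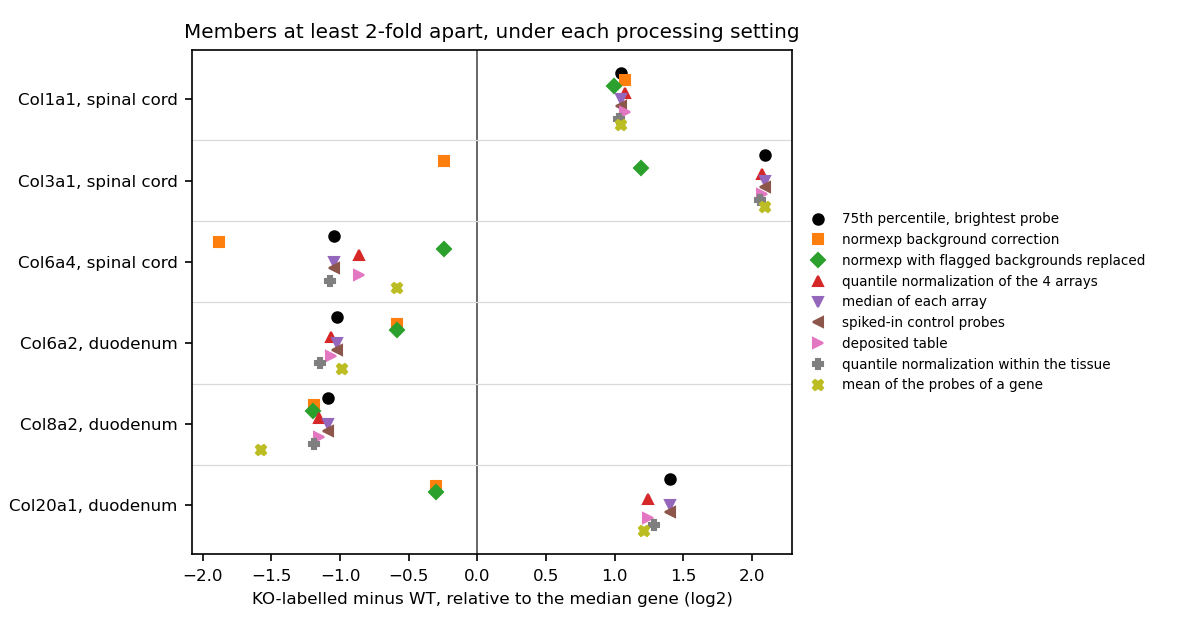
Log2 differences of the KO-labelled minus the WT array, relative to the median gene, for the 6 members at least 2-fold apart and measured on both arrays, under each of 9 settings. The values of Col1a1 lie from 0.99 to 1.07, whereas Col3a1 falls to −0.24 and Col20a1 to −0.30 under normexp background correction.

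Chains that assemble together did not always differ alike. In type I, Col1a1 exceeded Col1a2 by 0.37 in the spinal cord difference, with a technical SD of the gap of 0.084, and by 0.088 in the duodenum, with 0.11. In type IV, whose promoter windows are printed above, the gap of Col4a1 over Col4a2 was 0.15 in the spinal cord with a technical SD of 0.085 and 0.73 in the duodenum with 0.11. In type VI, the gap of Col6a1 over Col6a2 was −0.31 in the spinal cord with a technical SD of 0.12 and 0.45 in the duodenum with 0.11. The gaps of type IV in the duodenum, of type I in the spinal cord and of type VI in both tissues exceeded the spread of repeated spots by over 2 times, and no spread between mice is known. Under normexp with the backgrounds as deposited the spinal cord gaps turned their sign, to −0.21 for type I, −0.032 for type IV and 1.43 for type VI, and that of type I in the duodenum to −0.32, while the duodenum gaps of types IV and VI stayed between 0.46 and 0.73 and between 0.45 and 0.70 over the settings.

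Between the tissues, some collagens were higher and others lower on the duodenum array after scaling, in shares that in WT were near those of all genes. At least 2-fold higher on the duodenum array were 11 of 36 members in WT, or 30.6% against 30.2% of all genes, and 9 of 38 in the KO-labelled pair, or 23.7% against 30.3%. At least 2-fold lower were 9 in WT, or 25.0% against 23.1%, and 13 in the KO-labelled pair, or 34.2% against 25.4%. The median difference was 1.40 over 20 members in WT and 0.52 over 26 in the KO-labelled pair, against 0.63 and 0.30 over all genes. Because the scaling on spiked-in probes moved the median gene to −4.41 in WT and −1.56 in the KO-labelled pair, tissue differences are given relative to the median gene. The WT and KO-labelled pairs are separate arrays.

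Higher in the duodenum, relative to the median gene in WT and in the KO-labelled pair, were Col3a1 by 5.0 and 3.01, Col6a1 by 2.85 and 2.39, and Col6a2 by 4.32 and 3.10. Col6a4 was higher by 4.73 and 5.80, with levels of −5.58 and −6.66 on the WT and KO-labelled spinal cord arrays and of −0.21 and −0.56 on the duodenum arrays. The fibril-associated Col14a1 was higher by 3.37 and 3.01, the anchoring fibril gene Col7a1 by 2.10 and 2.64, and Col18a1, a basement membrane proteoglycan and the source of endostatin, by 2.67 and 2.63. The Col18a1 probe gave 289 and 345 on the spinal cord arrays and 213 and 874 on the duodenum arrays. Each of these 7 genes was higher under every setting run. The type I chains lay nearer to the median gene, at 0.76 and 0.11 for Col1a1 and −0.04 and −0.41 for Col1a2. Col4a1 lay at 0.36 and 0.33 and Col4a2 at 1.02 and 0.40.

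Lower in the duodenum on the same scale were Col5a3 by −4.0 and −3.70, Col9a2 by −3.69 and −3.59, and Col16a1 by −2.23 and −2.46, again under every setting run. Col5a3 had signals of 1492 and 1933 on the WT and KO-labelled spinal cord arrays and of 10.8 and 61.0 on the duodenum arrays, and Col16a1, a fibril-associated collagen, had 3318 and 4054 against 82.2 and 301. Col9a2, a chain of the fibril coat of cartilage, had 774 and 814 against 6.95 and 27.7. For genes not detected in the duodenum the difference is a bound on the scale of the 75th percentile. Col26a1, at 566 and 690 in the spinal cord, was at least 9.89-fold lower in WT duodenum and at least 53.0-fold lower in the KO-labelled pair. For Col11a1, at 221 and 251, the bounds were 3.87-fold and 19.2-fold, for Col2a1 4.77-fold and 15.3-fold, for Col25a1, a neuronal transmembrane collagen, 2.77-fold and 13.9-fold, and for Col24a1 2.67-fold and 13.4-fold. Col22a1, known from tissue junctions, was at least 4.86-fold lower in WT and differed by −4.20 in the KO-labelled pair. These bounds hold on this scaling only, and the weaker WT bounds come from the higher detection floor of that array.

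**Figure D4:**
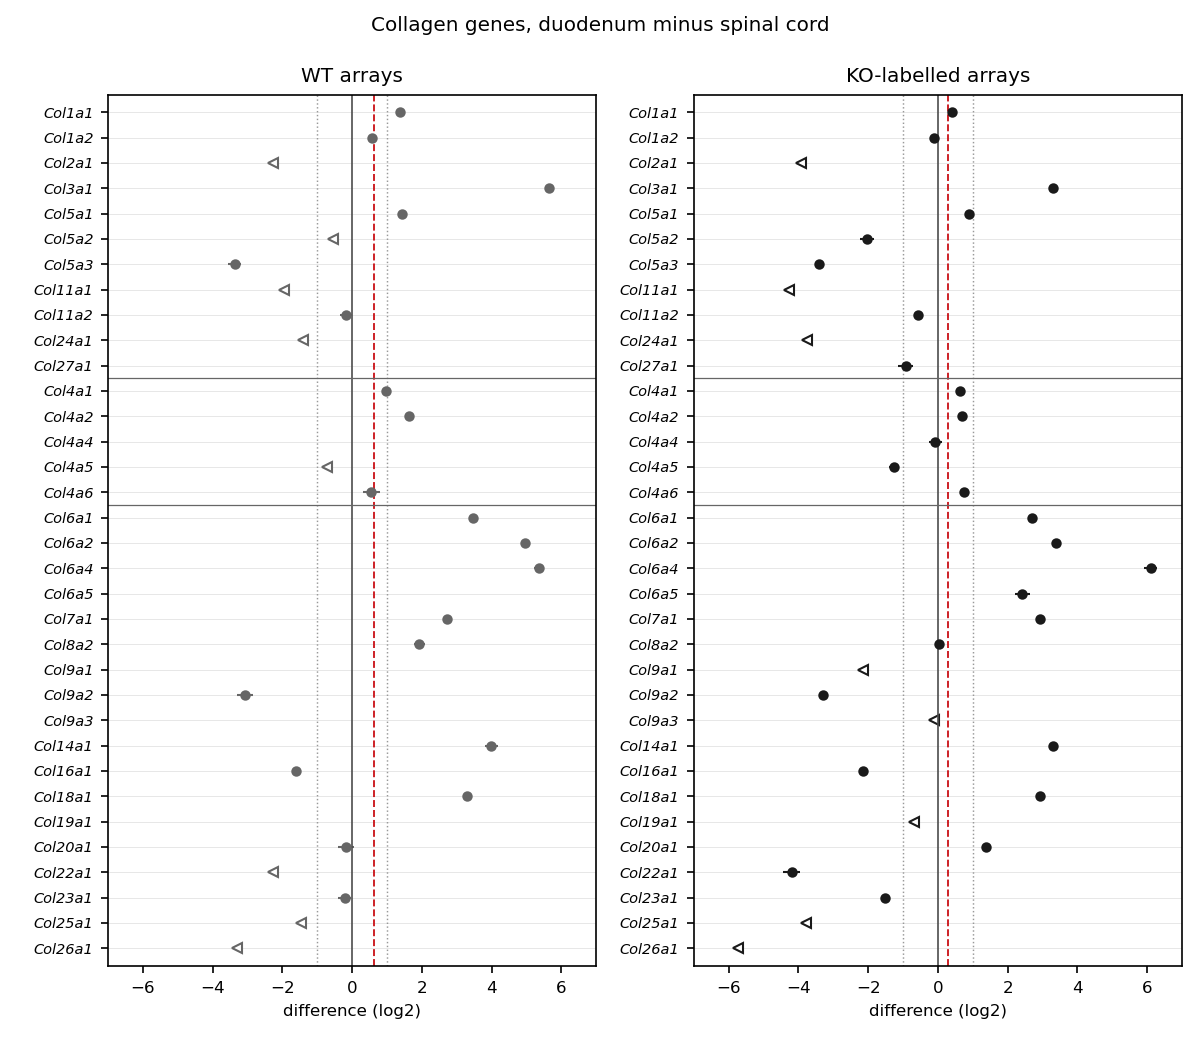
Log2 differences of the duodenum array minus the spinal cord array for collagen genes, in WT and in the KO-labelled pair, in the order fibrillar, basement membrane and other. Bars are technical SDs, triangles are bounds, dotted lines mark 2-fold and the red dashes mark the median gene at 0.63 and 0.30, which moves to −4.41 and −1.56 with all points under spiked-in scaling. Type VI chains lie far to the right of the median gene and Col5a3 far to the left in both panels.

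The genes that make, cross-link, bind and degrade collagen were followed as 7 lists of 72 genes, of which 70 were on the arrays. In the spinal cord 67 were detected, and 7 were at least 2-fold higher and 1 lower on the KO-labelled array. In the duodenum 65 were detected, and none was 2-fold higher and 7 were lower. The share over all genes is the 2.28% and 0.865% of the spinal cord and the 7.20% and 11.9% of the duodenum given above.

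In the spinal cord the 8 genes past 2-fold came from 5 of the 7 lists. Of 6 detected fibril-associated proteoglycan genes 3 were higher, Ogn by 3.58 with signals of 193 and 2476 on the WT and KO-labelled arrays, Dcn by 1.83 with 2109 and 8049, and Lum by 1.29 with 46.7 and 123. Lox, which cross-links collagen chains, was higher by 3.10 with signals of 7.57 and 69.4, the only one of 5 cross-linking genes past 2-fold. Pcolce, an enhancer of propeptide cleavage, was higher by 1.08 and Adamts14, a propeptide protease, lower at −1.07. Hspg2, which encodes perlecan of basement membranes, was higher by 1.15, and the platelet collagen receptor gene Gp6 was higher by at least 1.74 on the log2 scale. None of 17 chain modification genes and none of 10 detected collagen degradation genes was 2-fold apart.

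In the duodenum the proteoglycan genes Bgn and Fmod were lower, at −2.21 and −1.31, and Bgn gave signals of 102 and 104 on the WT and KO-labelled arrays. Hspg2 was lower there, at −1.46, with 338 and 585. Tll1, a protease of the propeptide, was at −1.97, the prolyl hydroxylase genes P4ha3 and P3h1 at −1.81 and −1.21, and the cross-linking gene Loxl1 at −1.03. No receptor gene and no degradation gene was 2-fold apart in the duodenum.

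**Figure D5:**
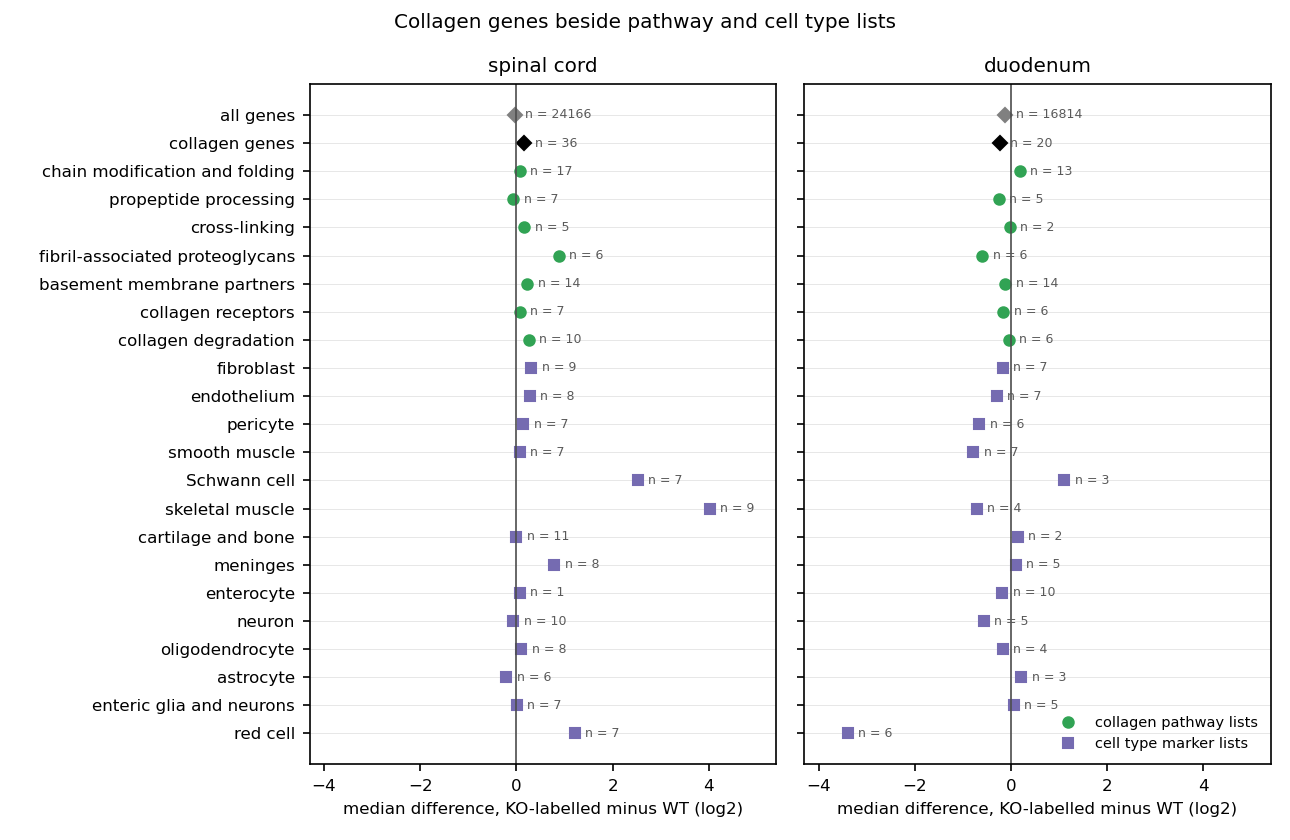
Median log2 difference, KO-labelled minus WT array, of the collagen genes, of all genes, and of pathway and cell type lists, with the number of genes above background on both arrays beside each point. The collagen medians of 0.16 and −0.23 lie near those of all genes, while skeletal muscle at 4.02 and Schwann cell at 2.53 in the spinal cord and red cell at −3.39 in the duodenum lie furthest away.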

How the data were processed

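Cy3-labelled RNA from the 4 tissues was hybridized to Agilent mouse arrays. Per the submitters' processing notes the scans were read with Agilent Feature Extraction 11.5.1.1. The files deposited by the authors are scanner output, whose processed signal is a background-subtracted intensity, and a series table, whose deposited log2 values were found to be the processed signal, floored at 1 and quantile normalized over the 4 arrays. Member probes well above background differed in that table by at most 0.0028 from values rebuilt here.

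Control spots and flagged spots (89 to 133 of 43020 per array) were left out, spots of the same probe were averaged on the log2 scale, and each array was set to its 75th percentile. Probes were named through RefSeq accessions of GRCm38.p6, where 25868 of 26391 probes with an NM accession matched a symbol. Each gene took its brightest probe (highest mean of the 4 levels), and 14 members had more than 1 probe. Genes above background on 1 array of a pair gave a bound against the higher of their own value and the lowest level well above background on the other array. No spot was saturated. The technical SD is the median SD of the 50 probes nearest in brightness among 399 spotted 10 times.

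No test was possible between single arrays, and 2-fold differences were counted over genes above background on either array. Named are the members 2-fold apart, the 3 highest of each class in each tissue, the type IV chains and the members detected in 1 tissue only. The members and the pathway and cell lists were chosen with earlier results of these data known. Alternatives were normexp (offset 50), quantile, median and spike-in scaling (8 probes), the deposited table, the mean of the probes, a threshold of 1.5-fold, other filters on dim probes and another class membership. The calculation was tested on simulated data. R 4.3.3 with limma 3.58.1 and Python 3.11.15 with numpy 2.4.6, pandas 2.3.3 and matplotlib 3.10.9 were used.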

Additional observations from a re-analysis of the deposited data

Results flagged for a closer look

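Of the 20 members detected on all 4 arrays, 8 had KO-labelled minus WT differences in opposite directions between the tissues that exceeded 2 technical SDs in both. Col1a2, Col5a1, Col6a1, Col11a2 and Col14a1 also had opposite signs. They were not counted, because the difference in 1 of the tissues was within 2 technical SDs. Among all genes, 44.2% were higher on the KO-labelled array of the duodenum and 41.3% on that of the spinal cord. The share of all genes meeting the same rule was not counted, so the 8 cannot be called particular to collagens. The duodenum difference minus the spinal cord difference was −2.33 for Col3a1, −1.89 for Col8a2, −1.55 for Col6a2, −1.29 for Col23a1, −0.94 for Col4a2, −0.56 for Col16a1, −0.37 for Col18a1 and 1.56 for Col20a1. Only 2 of the 8, Col4a2 and Col16a1, kept both directions relative to the median gene under every setting. Another Col16a1 probe, however, was at 0.095 in the duodenum, against −0.37 for the brightest. The probes of Col23a1 disagreed too, as did those of Col8a2 in the spinal cord, at 0.69 and −0.27. For Col18a1 a second probe kept the direction in the duodenum but was at −0.069, against −0.21 for the probe used. Each tissue has 1 array per label, so the difference between tissues was not tested.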

How the results depend on the processing

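No median over the members, and no member 2-fold apart, turned its sign under quantile normalization, the median of each array, the deposited table or the mean of the probes, but the median of all genes in the duodenum turned from −0.11 to 0.013 under quantile normalization of the 4 arrays and in the deposited table, and to 0.014 under quantile normalization within the tissue. The limits are 1 array per group, dim duodenum arrays and the dependence of all absolute differences on the scaling. No paired analysis was possible because a tissue holds only 1 array of either genotype. The cause of the changes below was not tested, except where more or fewer genes or bounds entered by construction. For single members, 402 values moved by less than 1 technical SD and 453 by more, some of them past 0, and 19 further values of members at least 2-fold apart turned their sign.

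In the duodenum, normexp correction gave a median KO-labelled minus WT difference of −0.42, with 0 members at least 2-fold higher and 5 lower, both as deposited and with flagged backgrounds replaced, and Col20a1 at −0.48. Scaling on spiked-in probes gave a median of 2.77, with 26 higher and 0 lower, Col6a2 at 1.87 and Col8a2 at 1.81. At 1.5-fold 5 were lower, and without a filter on dim probes 2 were higher and 13 lower. In the spinal cord, normexp gave a median of −0.90, 0 higher and 16 lower, with Col3a1 at −0.69, whereas all genes had a median of −0.45. With flagged backgrounds replaced it gave 0.078, 1 higher and 0 lower. Spiked-in scaling gave a median of −0.010. No member was 2-fold lower under quantile normalization of the 4 arrays, the mean of the probes or the deposited table (0 each, against 1), while 5 were higher at 1.5-fold and 6 without a filter.

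For the duodenum minus the spinal cord in WT, normexp gave a median of 0.72 with 7 higher and 2 lower, with flagged backgrounds replaced 1.69 and 2 lower, and the median of each array 1.63. Spiked-in scaling gave −3.63 with 0 higher and 33 lower, and turned Col1a1 to −3.65, Col4a2 to −3.39, Col5a1 to −3.61, Col6a1 to −1.56, Col6a2 to −0.086, Col7a1 to −2.31, Col8a2 to −3.11, Col14a1 to −1.04 and Col18a1 to −1.74. Only 3 were lower among genes above background on both arrays, 18 were higher without a filter, and the median was 0.19 with bounds added. In the KO-labelled pair, the medians were 0.74 under normexp in either form, with 6 lower, 0.79 for the median of each array, −1.34 under spiked-in scaling, with 26 lower and Col20a1 at −0.48, and −0.11 with bounds added, while 7 were lower among genes above background on both arrays. Under normexp Col4a5 was at 0.0089 and Col5a2 at 0.097, and with flagged backgrounds replaced at 0.0076 and 0.096.

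Class medians of the level moved under quantile normalization, to −2.48, −2.37 and −2.85 for fibrillar genes on WT spinal cord, KO-labelled spinal cord and KO-labelled duodenum, to −3.68, −3.38 and −3.36 for basement membrane genes, and to −4.33, −4.21 and −5.56 for others, against −2.40, −2.28 and −2.97, then −3.56, −3.25 and −3.50, then −4.21, −4.06 and −5.83. With types VII, XV and XVIII counted as basement membrane, that class moved to −3.22 and −2.91 on the spinal cord arrays and −2.83 on the KO-labelled duodenum array, and the others to −4.89 and −4.66 on the spinal cord arrays.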
